A study of Mus musculus with 3 samples.

Results

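Cycling pro-B leukemia cells are the barcodes of leukemic peripheral blood (PB) that carried both pro-B and cell cycle transcripts, and they numbered 689, with 96 in the D11 library and 593 in the D14 library. They were drawn from the 8981 barcodes that were kept in these 2 libraries, of 12792 kept in the whole series. A barcode was kept when it had at least 200 detected genes and at most 10% of its unique molecular identifiers (UMIs, each standing for 1 captured transcript) in mitochondrial genes. It entered the class with at least 3 UMIs summed over Vpreb1, Igll1, Dntt and Rag1, at least 2 summed over Mki67 and Top2a, and at most 1 summed over the monocyte gene F13a1 and the T-cell gene Cd3e. Members were thus selected on the measured UMIs of these 8 genes, so their levels in the class, and every difference between cycling and non-cycling cells, are given as a description and support nothing.

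The study followed the immune cells of mice with stem cell leukemia/lymphoma syndrome (SCLL). Mice were engrafted with BBC2, a pro-B-like line that carries the BCR-FGFR1 fusion kinase. The 3 libraries hold PB of naive Balb/C mice and of Balb/C mice at D11 and D14 after BBC2 engraftment, all given the genotype WT in the labels, and the mice of the study were females of 6–8 weeks. Red cells were lysed and dead cells removed before 10x Genomics 3′ v3 libraries were made, and the number of mice in each library is not given in the sources used here. BBC2 is a single cell line and carries green fluorescent protein (GFP), but the count tables list no feature for GFP or for the fusion, so leukemia cells were recognised by pro-B genes alone. Each condition has 1 library, so no test was made, and a difference between days cannot be told apart from a difference between libraries. All intervals are 95% and cover counting error only.

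Pro-B cells are early B-lineage precursors that normally stay in the bone marrow while they rearrange their immunoglobulin heavy chain genes. They express the surrogate light chain, made from Vpreb1 and Igll1, the recombinase genes Rag1 and Rag2, and Dntt, which encodes the terminal transferase that adds bases at the rearranged joints. Mki67, a coat protein of mitotic chromosomes, and Top2a, the topoisomerase that untangles replicated DNA, accumulate from S phase to mitosis and mark dividing cells. BCR-FGFR1 joins the BCR gene to the kinase domain of a fibroblast growth factor receptor and signals without ligand.

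The class made up 2.10% [1.71–2.56] of the 4567 kept D11 barcodes and 13.4% [12.4–14.5] of the 4414 kept D14 barcodes (Clopper-Pearson), a ratio of 6.39 [5.14–8.01]. Over the 2915 D11 and 3154 D14 barcodes with at most 1% hemoglobin UMIs the shares were 3.29% and 18.8%, a ratio of 5.71 [4.59–7.16]. After thinning each barcode to 5000 UMIs the shares were 2.57% and 9.72%, a ratio of 3.78. At 2000 UMIs they were 0.729% and 2.50%. The share was higher in the D14 library in each case, and the denominators depend on red cell lysis and on how many other leukocytes were captured. The naive library held 1 barcode of the class among 3811, or 0.0262% [0.000664–0.146]. That barcode had 49639 UMIs, with 41 of Vpreb1, 38 of Igll1, 31 of Top2a, 13 of Mki67 and 0 of Dntt, and it was not counted among the 689.

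**Figure D1:**
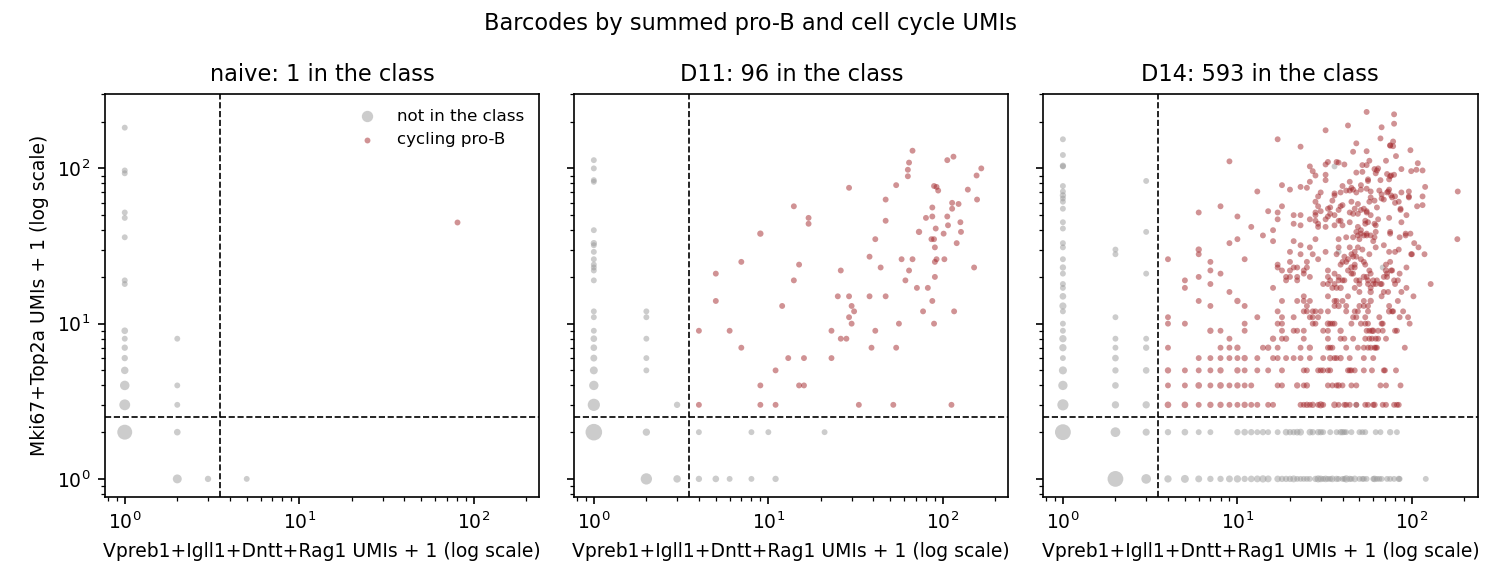
Each point is a set of kept barcodes at 1 pair of values, with its area growing with their number, placed by summed pro-B UMIs (x, plus 1, log scale) and summed Mki67 and Top2a UMIs (y, plus 1, log scale) in the naive, D11 and D14 libraries. Dashed lines are the limits; the class fills the upper right in D14 (593) and D11 (96), while the naive library has 1 point there.

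Most members lay well inside the limits. In the median D11 cell the pro-B sum was 54 UMIs and the sum of Mki67 and Top2a 23.5, and in the median D14 cell they were 38 and 17. Just inside the pro-B limit, with a sum of 3, were 2 D11 and 10 D14 cells, and just outside, with a sum of 2, were 1 and 15 barcodes. At the cell cycle limit the D14 library was continuous, with 51 cells at a sum of 2 and 60 pro-B cells at a sum of 1, whose median depths were 24503 and 24638 UMIs. In D11 the corresponding counts were 6 and 4. Another 4 D14 barcodes were kept out by F13a1 and Cd3e.

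Cycling pro-B cells were deeply covered, with a median of 31125.5 UMIs at D11 (range 1940–80774) and 34488 at D14 (range 1043–101206), and with medians of 5931 and 6202 genes. Mature B cells, chosen by Ms4a1, Ighd and Fcer2a UMIs as a reference from the same libraries, had medians of 5779 and 6506 UMIs. The non-cycling pro-B cells, which met the pro-B limit but not the cell cycle limit, numbered 13 at D11 with a median of 3771 UMIs and 185 at D14 with a median of 23648. The gate counts UMIs, so it admits deep cells more readily. Cycling cells were 88.1% [80.5–93.5] of 109 pro-B cells at D11, where the 13 others also carried transcripts of other classes, and 76.2% [73.1–79.2] of 778 at D14. When each barcode was thinned to 5000 UMIs and classified again, they were 82.1% of 84 and 51.2% of 576. At that depth 1882 D11 and 1378 D14 barcodes were too shallow to enter. At 2000 UMIs they were 43.5% [31.6–56.0] of 69 and 31.0% [25.9–36.4] of 313, so the intervals of the days overlapped.

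The B-lineage label was checked against genes outside the gate. Ebf1, a transcription factor that specifies the B lineage, was at 4136 counts per 1000000 UMIs of the class (CPM) in D11 and 3486 in D14. Pax5, which commits cells to that lineage, was at 523 and 611 CPM, and Cd79a, which encodes a signalling chain of the B-cell receptor, at 688 and 705 CPM. Vpreb3 was at 1411 and 1612 CPM and Il7r, the interleukin-7 receptor of early B cells, at 227 and 329 CPM. Of 15 genes of mature B cells, summing to 194 and 392 CPM, 14 were below 20 CPM on both days. The exception was Cd52, a surface glycoprotein of lymphocytes, at 138 and 287 CPM. Ms4a1, which encodes CD20, was at 0.615 and 0.570 CPM, and the MHC class II gene H2-Aa at 1.84 and 1.76 CPM. Rag1 had 0 UMIs in D11 and 5 in D14, and Rag2 was at 0 and 0.427 CPM, so the recombinase genes of the pro-B label were absent or nearly so. The gate genes Vpreb1 and Igll1 were at 1042 and 792 CPM and at 354 and 277 CPM. Barcodes with neutrophil markers were also chosen with no limit on pro-B UMIs but with no Cd79a or Cd3d UMI. In them Vpreb1 was at 2.36 and 12.8 CPM and Igll1 at 0.788 and 3.92 CPM. Cd79a is a gene of the class, so that rule can lower these levels.

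Markers of other lineages were low but not all at 0. Summed over 7 T-cell markers the class had 34.7 CPM at D11 and 34.2 at D14, nearly all of it Lck, and 5 and 2 of the 7 genes were at 0. Summed over 7 monocyte markers it had 22.4 and 44.1 CPM, led by Lyz2 at 13.2 and 29.0 CPM. The 5 natural killer markers summed to 0.922 and 5.65 CPM, the 5 platelet markers to 4.92 and 7.17, and the 6 progenitor markers to 4.92 and 9.87. Neutrophil and hemoglobin transcripts were higher than these and differed between the days. The 8 neutrophil markers summed to 123 and 394 CPM, led by S100a9 at 67.9 and 197 CPM, with none of the 8 at 0 in either library; the neutrophil class itself held 60738 and 72164 CPM of them. The 7 red cell markers summed to 12184 and 5060 CPM, led by Hbb-bs at 6359 and 2753 CPM. The part of these transcripts in the differences between D11 and D14 was not tested. The same 18 barcode sequences occurred in the D11 and D14 libraries, and none was a cycling pro-B cell in either.

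**Figure D2:**
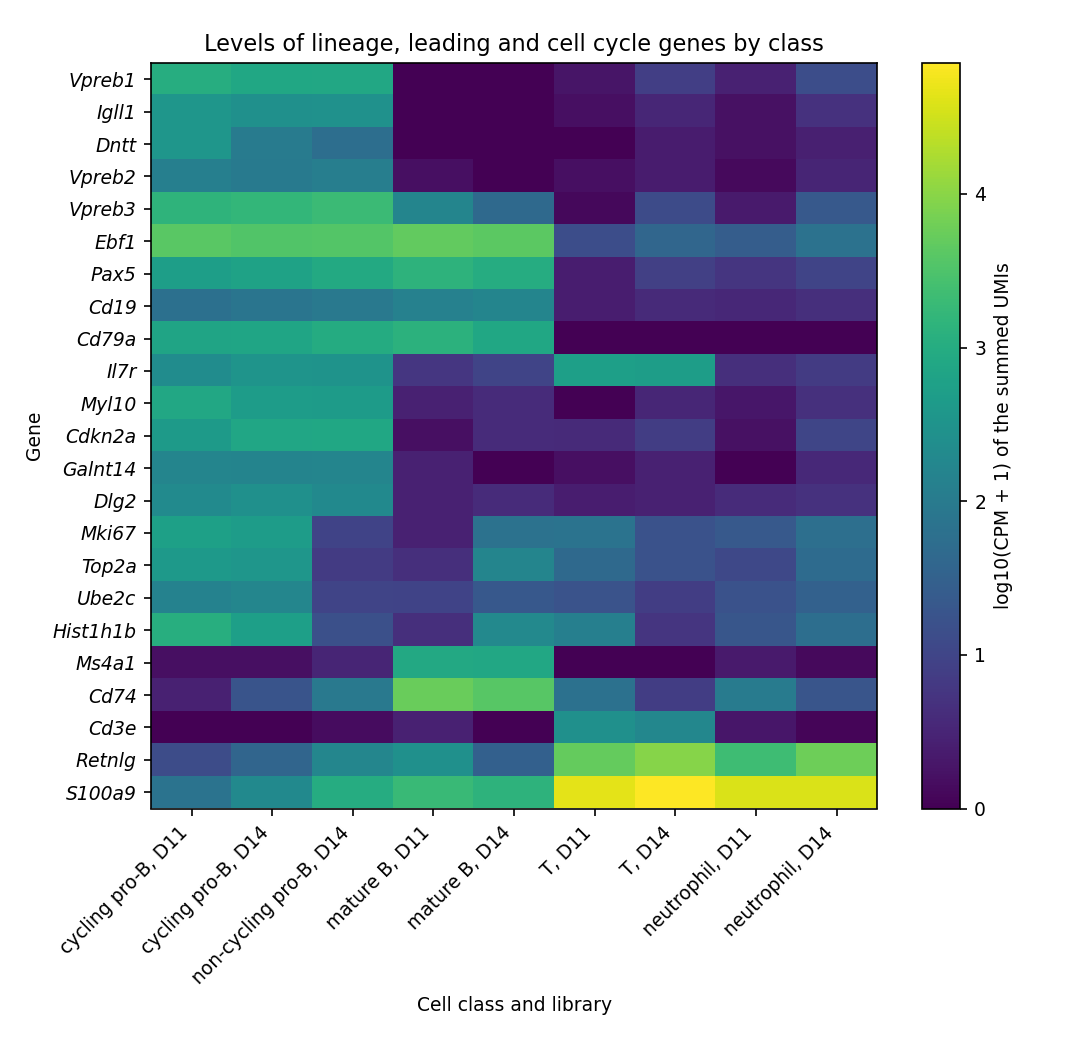
Rows are genes and columns are cell classes by library; color is log10(CPM + 1) of the UMIs summed over the class. Cycling pro-B cells share Ebf1, Pax5 and Cd79a with mature B cells (4136, 523 and 688 CPM at D11), lack Ms4a1, and carry Myl10, Cdkn2a, Galnt14 and Dlg2, which are dark in the mature B, T and neutrophil classes and present in non-cycling pro-B cells. Cycling cells have almost no Cd3e, mature B cells no Vpreb1, Igll1 or Dntt, and neutrophils and T cells no Cd79a, by their rule; the barcodes called T cells also hold much S100a9.

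A set of genes marked these cells apart from the mature B, T and neutrophil classes, chosen after the values were seen and so given as levels only. Non-cycling pro-B cells carried them too, with Myl10 at 459, Cdkn2a at 792, Galnt14 at 160, Epb41l4b at 290, Dlg2 at 196, Tnfsf11 at 83.2 and Socs2 at 399 CPM at D14. Myl10, which encodes a myosin light chain, was at 822 CPM in D11 and 488 in D14 and at most 3.75 CPM in any reference class. Cdkn2a, which encodes the cell cycle inhibitors p16Ink4a and p19Arf, was at 439 and 726 CPM, against at most 9.54. Galnt14, a glycosyltransferase gene, was at 157 and 152 CPM against at most 2.55. Epb41l4b, of the band 4.1 family, was at 257 and 258 CPM against at most 5.11. Dlg2, a scaffold protein gene best known at synapses, was at 205 and 271 CPM against at most 3.92. Tnfsf11, which encodes the osteoclast factor RANKL, was at 163 and 120 CPM against at most 3.24. Socs2, an inhibitor of cytokine signalling and a target of STAT5, was at 282 and 353 CPM against at most 9.61. All of these were present on both days. The naive barcode of the class had 1 UMI of Myl10, 3 of Galnt14, 2 of Epb41l4b, 15 of Socs2 and none of Cdkn2a, Dlg2 or Tnfsf11.

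Between D11 and D14 few genes of the class moved far. Of 4071 genes at 50 CPM or more in either sum, 68 (1.67%) were at least 2-fold higher and 7 (0.172%) at least 2-fold lower at D14, with 1 CPM added to both. The median log2 ratio over these genes was -0.00396. The sums held 3252771 UMIs at D11 and 21071100 at D14, so that counting error came mainly from D11, where 50 CPM is 163 UMIs. The 5 genes with the highest ratios were S100a6, S100a4, Nav2, M1ap and Ptpn22. The 7 lower genes were the hemoglobin genes Hba-a1, Hba-a2, Hbb-bs and Hbb-bt, the metallothionein Mt1, and 2 genes of S phase, Rrm2 and Hist1h1b. Gate genes were left out of both counts. After thinning to 5000 UMIs before the class was chosen, 109 genes were higher and 30 lower. In the 26 D11 and 18 D14 cells with no UMI of the neutrophil genes Retnlg, S100a8 or S100a9, 146 were higher and 74 lower.

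S100a6 (chr3:90612882-90624181, plus strand, GRCm38), which encodes the calcium-binding protein calcyclin, was at 8.61 CPM in D11 and 1067 CPM in D14. The D14 level was 124-fold higher, a log2 ratio of 6.95 [6.42–7.54]. It was high in D14 non-cycling pro-B cells as well, at 2870 CPM. S100a6 was also abundant in neutrophils, at 2309 CPM in D11 and 2893 in D14, and in mature B cells it was at 91.0 CPM in the naive library, 340 in D11 and 1116 in D14. The level of S100a6 was higher at D14 in both of these reference classes too, though by little in neutrophils. The D14 value of mature B cells rests on 41 cells. In cycling cells with no UMI of the neutrophil genes Retnlg, S100a8 or S100a9 after thinning to 5000 UMIs, which were 72 of 92 at D11 and 313 of 581 at D14, the log2 ratio of S100a6 with 1 CPM added was 7.05, against 6.80 in all cycling cells. Those cells were summed at their own depth, where S100a8 still had a log2 ratio of 1.54, so neutrophil transcripts were not fully removed.

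Nav2 (chr7:48908716-49610090, plus strand, GRCm38), which encodes a cytoskeleton-associated protein of growing axons, was at 7.69 CPM in D11 and 121 in D14, a log2 ratio of 3.98 [3.41–4.61]. With 1 CPM added it was 3.81, and 6.38 when barcodes were thinned to 5000 UMIs before the class was chosen. In the 69 D11 cells of that thinned class the level was so low that 6.38 is set largely by the added 1 CPM. It is therefore not an exact ratio. Ahnak, a giant scaffold protein that binds S100a10, was at 109 and 440 CPM, a log2 ratio of 2.01 [1.85–2.16]. S100a10 itself, a membrane-associated partner of annexin A2, was at 97.5 and 347 CPM, a log2 ratio of 1.83. All 3 were higher at D14 by more than counting error. Lmna, which encodes the A-type nuclear lamins, was at 48.6 CPM in D11 and 190 in D14. Lsp1, a leukocyte actin-binding protein, was at 29.5 and 117 CPM, and Emp3, an epithelial membrane protein, at 29.5 and 115 CPM. Their log2 ratios were 1.97, 1.99 and 1.96, so each was close to 4-fold higher. After the same thinning that of Lmna was 1.31.

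Serpinb1a, an inhibitor of neutrophil proteases, was at 39.4 and 158 CPM, a log2 ratio of 2.01 that was 1.24 after the same thinning. Napsa, an aspartic protease, was at 49.5 and 143 CPM, with a log2 ratio of 1.53. Vgll4, a cofactor of TEAD transcription factors, was at 77.8 and 213 CPM, and Ank3, which anchors membrane proteins to spectrin, was at 133 and 355 CPM, with log2 ratios of 1.45 and 1.42. S100a8, a neutrophil gene, was at 24.3 and 139 CPM, a log2 ratio of 2.52 that was 3.28 after the same thinning, and it moved with the other neutrophil transcripts given above. Cycling cells without a Retnlg, S100a8 or S100a9 UMI at 5000 UMIs were summed at their own depth. There the log2 ratio with 1 CPM added was 2.15 for Ahnak and still 1.54 for S100a8. Leaving out every cell with a Retnlg, S100a8 or S100a9 UMI at its own depth kept only 26 D11 and 18 D14 cells. In these the ratio was 7.65 for S100a6, 3.12 for Nav2 and 2.52 for S100a10. For Ahnak, Vgll4 and Ank3 it was only 0.32, 0.35 and 0.02.

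Further genes among the 68 were picked out after their values were seen. S100a4, a neighbor of S100a6 in the same gene family, was at 0.307 CPM in D11, which is 1 UMI, and at 61.7 CPM in D14. M1ap, a gene of meiosis, was at 4.92 and 63.6 CPM, and Ptpn22, a phosphatase that restrains antigen receptor signalling, at 10.5 and 72.2 CPM. Pou2f2, which encodes the B-cell factor OCT2, was at 24.3 and 85.5 CPM. Txnip, an inhibitor of thioredoxin, was at 19.7 and 52.1 CPM, and Ddit4, an inhibitor of mTORC1, at 36.0 and 93.9 CPM. Tox, a nuclear factor of lymphocyte development, was at 33.5 and 96.6 CPM. Vim was at 430 and 968 CPM.

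**Figure D3:**
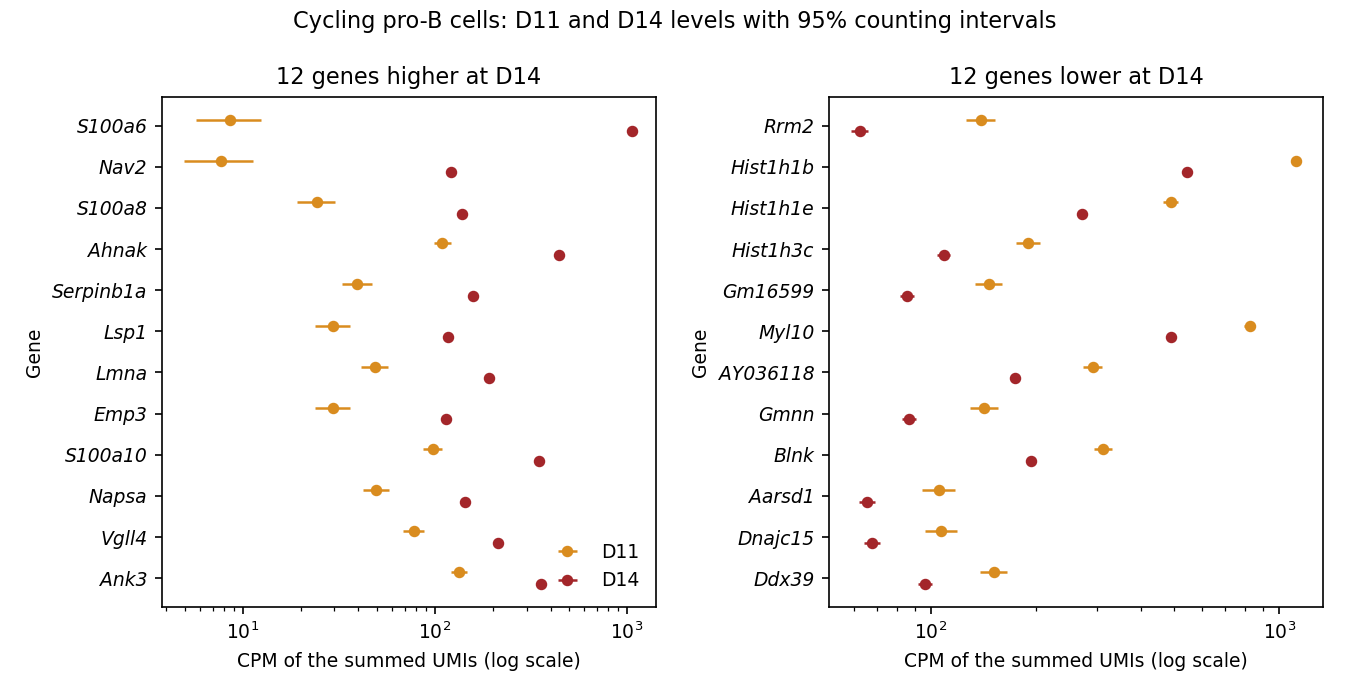
CPM of the summed UMIs (x, log scale) of the 12 genes highest and the 12 lowest at D14 against D11 (y) in cycling pro-B cells, with points for each library and exact Poisson 95% intervals as bars. The ranking covers genes with at least 100 CPM that went the same way in non-cycling cells, without gate, ribosomal, mitochondrial and hemoglobin genes. Among the genes shown, the distance between the days is widest for S100a6 (8.61 and 1067 CPM) and Nav2 (7.69 and 121 CPM). The lower genes shown differ by little more than 2-fold at most.

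Among the lower genes, Rrm2, a subunit of the ribonucleotide reductase that makes deoxynucleotides, was at 139 CPM in D11 and 62.5 in D14, a log2 ratio of -1.15 that rests on 452 and 1317 UMIs. Gmnn, which encodes geminin, the protein that keeps replication origins from firing again, was at 142 and 86.8 CPM. Of the linker and core histones, Hist1h1b (chr13:21779883-21780625, minus strand, GRCm38) was at 1114 and 544 CPM, Hist1h1e at 488 and 272 CPM, and Hist1h3c at 191 and 109 CPM. Their log2 ratios were -1.03, -0.85 and -0.81. With 1 CPM added they were -0.77, -0.41 and -0.16 after thinning to 5000 UMIs before the class was chosen. In the 26 D11 and 18 D14 cells with no UMI of the neutrophil genes Retnlg, S100a8 or S100a9 they were -0.10, -0.38 and -0.43. Hist1h1b thus passed 2-fold in neither setting. Transcripts of replication-dependent histones mostly lack a poly(A) tail, so a poly(A)-primed library counts only part of them. Myl10 was at 822 and 488 CPM, a log2 ratio of -0.75, and Blnk, the adaptor downstream of the pre-B-cell receptor, at 312 and 193 CPM, a log2 ratio of -0.69. Ddx39, an RNA helicase, was at 152 and 96.2 CPM. Aarsd1, Dnajc15, Gm16599 and AY036118 had log2 ratios of -0.68, -0.66, -0.78 and -0.74. In the cells with no such neutrophil UMI those were 0.08, -0.47, -1.81 and -1.68 with 1 CPM added, so that of Aarsd1 changed sign.

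Dntt (chr19:41029275-41059525, plus strand, GRCm38) was part of the gate, so that its values describe the class and support nothing. It was at 351 CPM in D11 and 104 in D14, a log2 ratio of -1.75. The ratio was -1.17 with the D14 cells limited to those without an S100a6 UMI at 5000 UMIs, and -0.75 in the 26 D11 and 18 D14 cells with no Retnlg, S100a8 or S100a9 UMI. A Dntt UMI was found in 83.3% of D11 cells and 51.1% of D14 cells. In barcodes with neutrophil markers, which should lack the gene and had medians of 3175 and 3705 UMIs, the shares were 0.308% of 1297 and 0.889% of 1012. Those barcodes had no Cd79a UMI by their rule, which can lower these shares. At 5000 UMIs per cell the shares were 60.9% of 92 and 28.1% of 581 cells.

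Most other early B genes differed little between the days. Of 28 genes of the early B list that reached 50 CPM, of 31, 1 was at least 2-fold higher and none 2-fold lower, beside 1.67% and 0.172% of all genes. Of the 28, 21 were above 0, where 49.3% of all genes were, and the median log2 ratio was 0.18. The higher one was Ly6d, a surface protein of lymphoid progenitors with B-cell potential, at 22.7 CPM in D11 and 79.2 in D14, a log2 ratio of 1.80 [1.46–2.15]. Ly6d reached the minimum only at D14, where it was higher. Tcf4, which encodes the E protein E2-2, was at 151 and 261 CPM, and Bach2, a transcriptional repressor of B-cell precursors, at 365 and 502 CPM. Lef1, a transcription factor that promotes survival and proliferation of pro-B cells, was at 572 and 459 CPM. Erg and Myb hardly moved, at 162 and 147 CPM and at 349 and 339 CPM. The immunoglobulin genes Ighm and Igkc were at 429 and 436 CPM and at 841 and 1252 CPM.

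Of 46 S-phase genes 36 reached the minimum, and 1 of these, Rrm2, was at least 2-fold lower, beside 0.172% of all genes. Of the 36, 34 had a log2 ratio below 0, with a median of -0.46, where 50.7% of all 4071 genes were below 0. Pcna, the sliding clamp of DNA polymerases, was at 291 CPM in D11 and 210 in D14. Tyms, the thymidylate synthase, was at 174 and 116 CPM, and Mcm4, a subunit of the replicative helicase, at 108 and 69.3 CPM. E2f8, a repressor that acts late in S phase, was one of those above 0, at 64.6 and 68.8 CPM. Of 11 replication-dependent histones, 10 were below 0 and the median was -0.80. In the 26 D11 and 18 D14 cells with no Retnlg, S100a8 or S100a9 UMI at their own depth, the S-phase and histone medians were -0.24 and -0.10. The nucleotide synthesis list, which shares genes with the S-phase list, had 13 of 13 below 0 and a median of -0.45. Dut, which removes dUTP, was at 371 and 219 CPM.

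Of 55 genes of G2 and mitosis 41 reached the minimum. Of these, 18 were above 0 and 23 below, close to the 49.3% of all genes above 0 and 50.7% below. None passed 2-fold, and the median was -0.03. That median changed sign under 4 alternatives and was 0.25 after thinning to 5000 UMIs before the class was chosen. Cdk1, the kinase that drives entry into mitosis, was at 176 CPM in D11 and 131 in D14. Ccnb1, its cyclin partner, was at 54.7 and 53.4 CPM. Ube2c, the ubiquitin-conjugating enzyme of the anaphase-promoting complex, was at 140 and 168 CPM, and Cenpe, a kinetochore motor, at 168 and 211 CPM. The first of these was lower at D14, the second about level, and the last 2 were higher.

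Cell by cell, the phase lists were compared after thinning to 5000 UMIs, which kept 92 D11 and 581 D14 cells. The median cell had 29.5 S-phase UMIs at D11 (quartiles 22 and 35) and 19 at D14 (quartiles 12 and 31). For the G2 and M list the medians were 40.5 (30 and 51) and 35 (21 and 52), and for histones 4 (1 and 23) and 2 (1 and 14). The quartile ranges of the 2 libraries overlapped for every list. Cells with more S-phase than G2 and M UMIs were 31.5% [22.2–42.0] at D11 and 30.3% [26.6–34.2] at D14. The lower quartile of either phase list was lower at D14. In the 164 non-cycling D14 cells deep enough, the medians of these lists were 8 and 10 UMIs, and part of the D14 cycling cells lay among them.

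**Figure D4:**
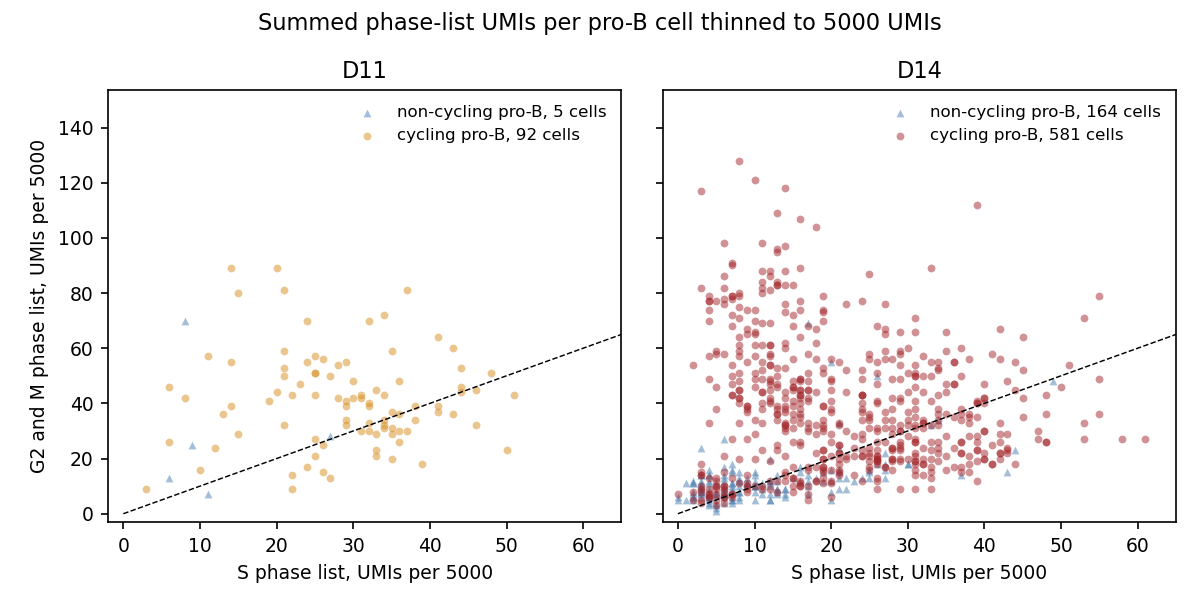
Summed UMIs of the S-phase list (x) and of the G2 and M list (y) in each pro-B cell thinned to 5000 UMIs, for cycling cells (circles) and non-cycling cells (triangles) of D11 and D14; the dashed line marks equal sums. D11 cells center near 29.5 S-phase UMIs, while D14 cells reach from high values of either list down into the cloud of non-cycling cells, whose medians are 8 and 10.

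Of 15 genes of cell cycle inhibition and quiescence, 5 reached the minimum. The log2 ratios of these 5 were above 0, with a median of 0.93, and 2 of them, Klf2 and Mxd4, passed 2-fold. Klf2 and Mxd4 reached the minimum only at D14, where they were higher, so their calls support nothing. Of all 4071 genes 49.3% were above 0 and 1.67% were at least 2-fold higher. Cdkn2a (chr4:89274471-89294653, minus strand, GRCm38) was at 439 CPM in D11 and 726 in D14, a log2 ratio of 0.73 [0.65–0.81]. Klf2, a transcription factor of quiescent lymphocytes, was at 30.7 and 86.8 CPM, and Mxd4, an antagonist of MYC, at 48.9 and 103 CPM. Btg1, an antiproliferative gene, was at 84.9 and 162 CPM. Of the G1 genes, Ccnd2, a D-type cyclin, was at 245 and 457 CPM, while Ccnd3 was at 582 and 608, Cdk6 at 864 and 858 and Myc at 77.5 and 72.5 CPM. Over the 9 G1 genes measured, 3 were above 0 and 6 below.

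Of the Fgfr1 list, with the receptor, its fusion partners and downstream genes, 10 of 21 reached the minimum and all 10 were above 0, with a median of 0.32, beside 49.3% of all genes above 0 and 1.67% past 2-fold. Cish, a feedback inhibitor induced by STAT5, was the one past 2-fold, at 25.5 CPM in D11 and 52.4 in D14. It reached the minimum only at D14, where it was higher. Socs2 and Pim1, a kinase gene also downstream of STAT5, were at 282 and 353 CPM and at 204 and 234 CPM. Bcr was at 158 and 207 CPM. Mouse Fgfr1 itself was low, at 8.92 and 9.59 CPM, and no feature counts the transduced fusion. Kit, the stem cell factor receptor, had 0 and 1 UMIs.

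Further lists are set beside the 49.3% of all genes above 0 and 50.7% below. Of 7 heat shock genes all were below 0, with a median of -0.31, led in level by the chaperones Hsp90ab1 at 2824 and 2298 CPM and Hspa8 at 1715 and 1381 CPM. Of 11 glycolysis genes 10 were below 0, with a median of -0.22, and Ldha, the lactate dehydrogenase, was at 457 and 355 CPM. Of 9 MHC class I genes 6 were above 0, with a median of 0.38, and H2-K1, which presents peptides to CD8+ T cells, was at 292 and 492 CPM. Of 6 trafficking genes 5 were above 0, with a median of 0.41. Selplg, a ligand of selectins, was at 68.9 and 99.6 CPM, and Cxcr4, which holds precursors in the marrow, at 49.8 and 69.2 CPM. Cxcr4 reached the minimum only at D14, where it was higher. Of 6 immediate early genes, a sign of handling as well as of signalling, 4 were above 0 and the median was 0.23. Of 15 interferon-stimulated genes only 3 reached the minimum, all above 0, with a median of 0.33. No member of these 6 lists passed 2-fold. Cd52, the 1 mature B gene that reached the minimum, had a log2 ratio of 1.05.

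S100a6 was unevenly spread within the D14 class. At 5000 UMIs a UMI of it was found in 2 of 92 D11 cells (2.17%), with a maximum of 1, and in 227 of 581 D14 cells (39.1%), where the upper quartile was 3, the 95th percentile 32 and the maximum 148. At the cells' own depth the shares were 14.6% of 96 and 62.2% of 593, and in the shallower mature B cells 17.7% and 41.5%. D14 cells were then divided into 354 (60.9%) with no S100a6 UMI, 140 (24.1%) with 1 to 9 and 87 (15.0%) with 10 or more. These are ranges of 1 value and not types, and 37 cells lay near the upper limit, at 7 to 12 UMIs. The median depths before thinning were 35036, 31820 and 38096 UMIs. In 164 non-cycling D14 cells the same ranges held 42.7%, 26.2% and 31.1%, so the spread is not particular to cycling cells.

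Several genes changed in order over the ranges of the cycling D14 cells, in pooled CPM of the thinned cells. Ahnak was at 227 CPM in cells with no S100a6 UMI, at 554 in the middle range and at 917 in the high range. Lmna was at 72.3, 184 and 485 CPM, S100a10 at 131, 389 and 1097 CPM, and Vim, the intermediate filament vimentin, at 529, 1013 and 2097 CPM. Klf2 was at 52.5, 123 and 241 CPM and Cdkn2a at 636, 754 and 940 CPM. All of these were highest where S100a6 was highest. In the other direction, Myl10 was at 644, 280 and 230 CPM, and Ebf1 at 3928, 3226 and 2701 CPM. The gate gene Dntt, given as a description, was at 192, 28.6 and 34.5 CPM.

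Pax5 ran the other way from Ebf1, at 580, 690 and 717 CPM over the 3 ranges. Mki67, a gate gene, was at 473, 434 and 366 CPM, and the median S-phase sum was 22, 19 and 14 UMIs. Pooled CPM of the neutrophil genes S100a9 and S100a8 were also higher with S100a6, at 82.5, 699 and 828 and at 58.8, 506 and 561. Retnlg was at 19.8, 133 and 32.2 CPM. Cells with an S100a9 UMI were 103 of 354, 49 of 140 and 23 of 87, and with an S100a8 UMI 77, 24 and 22. Neither share of cells rose in order over the ranges, while that of Ahnak did, with 136, 108 and 79 cells. The part of the neutrophil genes in the ranges was not tested. Across the 581 cells, Spearman's rho of S100a6 with the summed UMIs of Ahnak, Lmna, S100a10, Vim, Emp3 and Lsp1 was 0.63, with Dntt -0.34 and with the S-phase list -0.19. In the 164 non-cycling D14 cells Ahnak was at 280, 660 and 1447 CPM over the ranges. There the rho of S100a6 with the same sum was 0.74. These points share 1 library and 1 thinned depth and are a description.

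**Figure D5:**
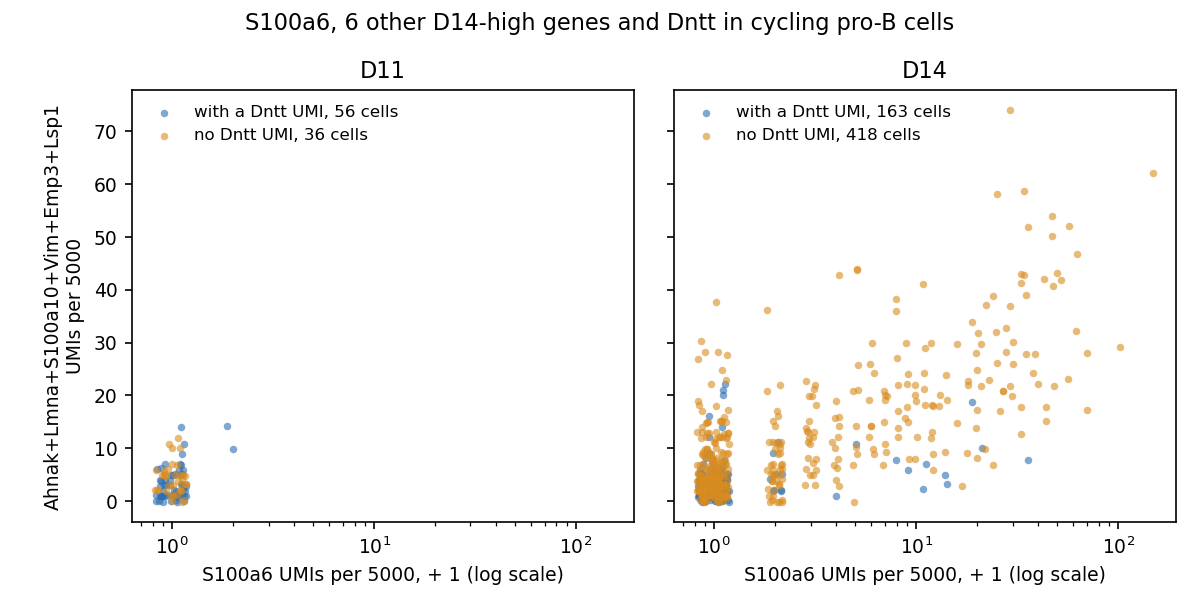
Each point is a cycling pro-B cell thinned to 5000 UMIs, placed by S100a6 UMIs (x, plus 1, log scale, jittered) and by the summed UMIs of Ahnak, Lmna, S100a10, Vim, Emp3 and Lsp1 (y), and colored by whether it had a Dntt UMI. At D11, 2 of 92 cells had an S100a6 UMI; at D14 the 227 cells that had one reach 148 UMIs, most have no Dntt UMI, and the 6-gene sum is higher at higher S100a6.

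The D14 cells with no S100a6 UMI at 5000 UMIs were also set against all D11 cells at their own depth. These 354 cells were low in S100a6 and not without it, at 37.7 CPM over all their UMIs against 8.61 CPM at D11, a log2 ratio of 2.13 [1.58–2.74], and the D11 cells were not selected in this way. In them the log2 ratio to D11 was 3.27 for Nav2, 1.60 for Serpinb1a, 1.41 for Vgll4 and 1.23 for Ank3. It was 1.15 for Ahnak, 0.84 for Lmna, 0.49 for Emp3 and 0.46 for S100a10. The ratios of Vgll4 and Ank3 were close to those of all D14 cells, and those of Emp3 and S100a10 were the farthest below them among these 8 genes. Among the lower genes the log2 ratio was -0.96 for Rrm2, -0.87 for Hist1h1b and -0.40 for Myl10.

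Against the 185 non-cycling D14 cells, the cycling cells show what the limit on Mki67 and Top2a selected. Of 4121 genes at 50 CPM or more in either sum, 121 (2.94%) were at least 2-fold higher in cycling cells and 40 (0.971%) at least 2-fold lower, and nothing is read from these counts. Hist1h1b was at 544 CPM in cycling and 14.5 in non-cycling cells. Kif4 and Kif15, kinesins of the mitotic chromosomes and spindle, were at 142 and 3.33 CPM and at 149 and 7.13 CPM. Nusap1, a spindle protein, was at 115 and 8.32 CPM, and Clspn, which encodes the replication checkpoint protein claspin, at 83.8 and 13.6 CPM. With barcodes thinned to 5000 UMIs before the classes were chosen, the log2 ratio with 1 CPM added went from 5.14 to 3.38 for Hist1h1b, from 5.05 to 2.92 for Kif4, from 4.20 to 2.45 for Kif15, from 3.63 to 2.79 for Nusap1 and from 2.54 to 1.16 for Clspn. By list, 33 of 39 G2 and M genes, 9 of 9 histones and 16 of 29 S-phase genes were at least 2-fold higher, with medians of 2.50, 2.97 and 1.06 that were 1.73, 2.35 and 0.45 after thinning. The early B list had 1 of 28 past 2-fold, and that was Ly6d, at 79.2 CPM in cycling and 368 in non-cycling cells.

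Non-cycling cells had more of some genes that also differed between the days. S100a6 was at 1067 CPM in cycling and 2870 in non-cycling cells, Ahnak at 440 and 869 CPM, and Ccnd2 at 457 and 706 CPM. Btg1 was at 162 and 295 CPM. Of genes of more mature B cells, Cd74, the invariant chain of MHC class II, was at 17.0 and 90.3 CPM, Bank1, a B-cell scaffold protein, at 17.4 and 73.9 CPM, and Pou2f2, which encodes OCT2, at 85.5 and 188 CPM. The neutrophil genes S100a8 and S100a9 were at 139 and 765 CPM and at 197 and 1018 CPM, with log2 ratios that went from -2.45 and -2.37 to -1.02 and -1.07 after thinning, and their part in the contrast was not tested. At D11 the 13 non-cycling cells held 61595 UMIs in all, with Cd74 at 731, Bank1 at 520 and S100a9 at 2176 CPM, so they carry transcripts of other classes. Besides the D11 share of cycling cells among pro-B cells, they were used for the direction of named genes.

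Promoters of the genes that were higher in cycling cells were searched for motifs known from mitotic genes. The cell cycle genes homology region (CHR, here TTTGAA or TTCGAA) and the CCAAT box (CCAAT) were looked for on both strands in the 250 bases before each RefSeq start. Of all 32851 promoters 17.1% held a CHR, 33.8% a CCAAT box and 6.02% both. Of the 33 G2 and M genes that were at least 2-fold higher in cycling cells, 28 matched, with 30 promoters, of which 40.0% held a CHR, 76.7% a CCAAT box and 36.7% both. Of the 16 such S-phase genes 12 matched, with 12 promoters, of which 8.33% held a CHR, 83.3% a CCAAT box and 8.33% both. An E2F motif (GGCGGGAA) was in 1.86% of all promoters, 3.33% of the G2 and M promoters and 16.7% of the S-phase promoters. A match is a description of the letters and not a bound site. These genes belong to lists of cell cycle genes and passed a contrast split by Mki67 and Top2a. Their motif shares thus describe that choice and support nothing.

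Stretches with both motifs are shown for 3 mitotic genes from RefSeq (GRCm38.p6), 5′ to 3′ on the gene's strand, with CHR and CCAAT letters of either strand in capitals. They are Cdk1 (chr10:69352939-69353058, minus strand), which was at 131 CPM in cycling and 8.32 in non-cycling D14 cells, Kif11 (chr19:37376262-37376381, plus strand), a spindle kinesin at 117 and 15.9 CPM, and Cdc20 (chr4:118437353-118437472, minus strand), an activator of the anaphase-promoting complex at 60.8 and 8.56 CPM. TTCAAA and ATTGG are the motifs as read on the other strand.
Cdk1: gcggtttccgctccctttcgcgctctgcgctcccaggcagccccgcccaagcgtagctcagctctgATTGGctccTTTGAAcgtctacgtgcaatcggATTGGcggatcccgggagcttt
Kif11: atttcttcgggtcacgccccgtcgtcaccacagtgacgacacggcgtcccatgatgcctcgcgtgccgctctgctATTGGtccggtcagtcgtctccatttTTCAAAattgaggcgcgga
Cdc20: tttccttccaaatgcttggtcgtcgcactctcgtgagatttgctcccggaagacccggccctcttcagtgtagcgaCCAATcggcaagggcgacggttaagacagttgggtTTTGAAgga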

How the data were processed

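PB of naive, D11 and D14 mice was measured in 3 single-cell libraries, 1 per condition. The authors deposited raw counts after cell calling, with whole numbers of UMIs per gene and barcode. The submitters' processing notes name Cell Ranger 7.1.0 and mm10, while the matrix headers name version 5.0.1. Libraries held 30362408, 57640396 and 65861863 UMIs in 5386, 8536 and 9337 barcodes, of which 3811, 4567 and 4414 were kept. No doublets were removed for the values given; Scrublet (scanpy 1.11.5) marked 1 and 0 barcodes of D11 and D14 at its own threshold, so removal of the highest scores was run as an alternative.

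UMIs were summed per class and library and scaled to CPM (exact Poisson intervals). Intervals are conditional binomial for ratios and Clopper-Pearson for shares (Python 3.11.15, numpy 2.4.6, pandas 2.3.3, scipy 1.17.1, matplotlib 3.10.9). log2 ratios are of CPM with nothing added, except that calls, list medians, the gene ranking and the alternatives add 1 CPM. Reference classes were kept barcodes with at least 3 UMIs of their markers (Ms4a1, Ighd and Fcer2a for mature B cells), and mature B cells had to have no UMI of the pro-B genes. Cells were thinned to 5000 UMIs by sampling without replacement. Normalization with edgeR 4.0.16 (R 4.3.3) was an alternative, and no model was fitted. The ratio and list steps were tested on simulated data.

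Named genes were the 12 highest and 12 lowest at D14 among those with at least 100 CPM that went the same way in non-cycling cells, likewise 12 and 12 for cycling against non-cycling cells in both libraries, and members of 25 lists of pathways and markers. The ranking left out gate, ribosomal, mitochondrial and hemoglobin genes. Of 382 list entries 381 matched a feature. Positions are from the GENCODE annotation of GRCm38. Members, lists and rules were chosen with earlier results of these data known. Alternatives covered the gate limits, filters, depth, scaling, doublets, hemoglobin and the minimum CPM.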

Additional observations from a re-analysis of the deposited data

How the results depend on the processing

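Under the alternatives, 18 values of the shares or their ratio moved outside the main interval and 40 stayed within it. Of the counts of genes, 13 moved by a fixed rule of size and 57 did not. The share of kept barcodes in the class, 2.10% at D11 and 13.4% at D14, was 1.17% and 6.95% of all barcodes, 2.82% and 17.3% under a stricter filter (500 genes, 5% mitochondrial), 3.02% and 17.8% without barcodes over 1% hemoglobin, and 2.57% and 9.72% after thinning to 5000 UMIs. Over the denominator without hemoglobin-rich barcodes it was 3.29% and 18.8%. With cell cycle limits of 1 and 5 UMIs the D14 share was 14.8% and 10.9%. After thinning to 2000 UMIs the class was 0.729% of D11 and 2.50% of D14 barcodes, and 43.5% and 31.0% of pro-B cells. After thinning to 5000 UMIs, the ratio of shares was 3.78 and the D14 class had 295 cells. Of pro-B cells, the cycling share at D11 was 93.8% with a pro-B limit of 6 and 78.9% with a cell cycle limit of 5; at D14 it was 83.9% with a cell cycle limit of 1, 61.8% with 5 and 51.2% after thinning.

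The 68 higher and 7 lower genes at D14 became 109 and 30 after thinning, 153 and 16 at a minimum of 20 CPM, and 11 higher at a minimum of 200 CPM; the stricter barcode filter gave 4 lower. Against non-cycling cells, 121 higher and 40 lower became 229 and 81 at 20 CPM and 25 and 12 at 200 CPM. Higher genes were 90.7% of the calls between days, 78.4% after thinning and 68.8% at 200 CPM. Some alternatives were chosen after seeing the data. With the D14 cells limited to those without an S100a6 UMI at 5000 UMIs, which still held 37.7 CPM of it, 27 genes were higher. Leaving out cells with any Retnlg, S100a8 or S100a9 UMI gave 146 higher and 74 lower, with 66.4% higher, from 26 D11 and 18 D14 cells; there Ank3 was at 0.02, Hist1h1b at -0.10, the histone median at -0.10, the S-phase median at -0.24 and the nucleotide synthesis median at -0.04. The cause of these shifts was not tested beyond the number of genes or cells each setting leaves. Over 350 values of 25 genes named between days under the alternatives chosen at the outset, none changed sign. Of these values 36 moved outside the interval of the main value. All of the genes but Dntt were picked for the size of this ratio in the same libraries, so a kept sign supports nothing. Of 182 values of list medians, 2 changed sign, both of the G2 and M list, which reached 0.25 after thinning. Under the later alternatives 1 of 75 gene values did (Aarsd1) and 3 of 39 list medians (G2 and M, and G1). For cycling against non-cycling cells, whose genes were likewise picked by this contrast, 0 of 336 gene values and 1 of 182 list medians (MHC class I) did. No paired analysis was possible because each condition has 1 library.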
